A study of Rattus norvegicus with 6 samples.

Results

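The genes examined were those of the rat major histocompatibility complex, which is called RT1, together with the genes that load its molecules with peptide or switch them on. Members were all rows of the deposited gene table whose symbol begins with RT1-, plus B2m, Tap1, Tap2, Tapbp, Erap1, Nlrc5, Cd74 and Ciita. This gave 48 of the 40154 genes in the table. Of the 48 members, 30 were class I genes, 10 were class II genes and 8 were loading or regulator genes. Reads were found for 39 members, and the other 9 were at 0 counts in every library. The filter on low counts left 26 members to test, of which 20 were class I genes, 6 were loading genes and none was a class II gene.

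The libraries came from atrial fibroblasts of Sprague-Dawley rats that were 1 to 3 days old. Per the methods, preplating was used to part the fibroblasts from the muscle cells. Both groups were transfected and kept for 24 h, the controls with a negative-control siRNA (si-NC, n = 3 libraries) and the others with an siRNA against Gpd1l (si-GPD1L, n = 3 libraries), so that transfection is shared by both. The labels also give heart (atrial muscle) as the tissue and "Atrial differentiation" as the treatment of every library. Neither the labels nor the methods say whether the libraries of a group came from separate cultures, and a p-value here measures the spread between these libraries, which may be technical. The reference genome used for the counts, rn6, comes largely from the Brown Norway strain, and the number and sequence of class I genes differ between rat strains.

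Class I molecules are made by nearly all nucleated cells. A heavy chain encoded by an RT1 class I gene pairs with beta-2-microglobulin, the product of B2m, and carries a short peptide from inside the cell to the surface, where CD8 T cells and natural killer cells read it. The peptides are cut by the proteasome, pumped into the endoplasmic reticulum by the Tap1-Tap2 transporter, trimmed by Erap1 and loaded with the help of tapasin, the product of Tapbp. Class II molecules, the RT1-B and RT1-D pairs in the rat, are made mainly by professional antigen-presenting cells, and need the invariant chain Cd74. Nlrc5 is the transactivator of class I genes and Ciita that of class II genes, and interferon-gamma raises both.

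The stretches of DNA just before the start of 7 members are shown with their exact matches to letters through which interferon and the MHC transactivators are known to act. The sequences are RefSeq's, in the GRCr8 build, and each covers the 250 bases before the annotated start, 5′ to 3′ on the strand of the gene. Capitals mark every match, on either strand, to any of 3 motifs. The first is the interferon-response core, in which the letters GAAA come again after a gap of any 2 bases. The second is the box CCAAT, which the factor NF-Y binds. The third is TGACG, the core of the cyclic-AMP-response element. RT1-S3, RT1-N3, Tap1, Tapbp, B2m and Tap2 hold an exact match to the interferon-response core. RT1-A2, the most abundant of the class I members, holds exact matches only to the other 2 of these motifs. Looser forms of the core were not searched for, so the lack of an exact match does not mean that an interferon-response site is absent.
RT1-S3 (chr20:2675278-2675527, plus strand): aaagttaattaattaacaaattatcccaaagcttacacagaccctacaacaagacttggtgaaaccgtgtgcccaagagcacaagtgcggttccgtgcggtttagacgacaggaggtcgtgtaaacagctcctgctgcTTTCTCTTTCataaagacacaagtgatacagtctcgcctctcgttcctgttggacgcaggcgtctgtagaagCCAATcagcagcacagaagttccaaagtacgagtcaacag
RT1-N3 (chr20:2666239-2666488, plus strand): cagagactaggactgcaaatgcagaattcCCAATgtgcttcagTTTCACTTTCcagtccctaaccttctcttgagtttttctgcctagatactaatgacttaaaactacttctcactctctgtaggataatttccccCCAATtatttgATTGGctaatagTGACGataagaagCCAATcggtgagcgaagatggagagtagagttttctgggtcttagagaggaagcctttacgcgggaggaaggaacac
Tap1 (chr20:4668544-4668793, minus strand): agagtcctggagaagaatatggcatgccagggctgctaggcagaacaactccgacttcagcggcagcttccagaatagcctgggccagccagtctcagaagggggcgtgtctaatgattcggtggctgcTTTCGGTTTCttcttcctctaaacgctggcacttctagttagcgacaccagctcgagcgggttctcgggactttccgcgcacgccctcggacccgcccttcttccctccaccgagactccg
Tapbp (chr20:4967878-4968127, minus strand): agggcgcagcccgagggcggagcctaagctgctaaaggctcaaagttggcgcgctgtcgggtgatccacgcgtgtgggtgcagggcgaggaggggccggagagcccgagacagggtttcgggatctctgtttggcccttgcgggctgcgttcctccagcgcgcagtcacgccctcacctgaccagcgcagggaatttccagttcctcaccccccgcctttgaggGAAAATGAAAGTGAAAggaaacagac
B2m (chr3:129549080-129549329, plus strand): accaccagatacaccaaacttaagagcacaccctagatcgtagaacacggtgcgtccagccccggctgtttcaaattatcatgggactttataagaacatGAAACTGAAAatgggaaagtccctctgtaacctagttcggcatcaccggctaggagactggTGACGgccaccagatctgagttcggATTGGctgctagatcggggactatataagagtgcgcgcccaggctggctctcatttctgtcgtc
Tap2 (chr20:4652297-4652546, minus strand): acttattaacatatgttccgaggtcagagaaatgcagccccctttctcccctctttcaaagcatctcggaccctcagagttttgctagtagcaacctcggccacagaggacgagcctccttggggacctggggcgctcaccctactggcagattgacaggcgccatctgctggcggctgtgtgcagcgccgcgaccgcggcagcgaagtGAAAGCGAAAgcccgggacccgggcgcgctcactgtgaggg
RT1-A2 (chr20:4872621-4872870, plus strand): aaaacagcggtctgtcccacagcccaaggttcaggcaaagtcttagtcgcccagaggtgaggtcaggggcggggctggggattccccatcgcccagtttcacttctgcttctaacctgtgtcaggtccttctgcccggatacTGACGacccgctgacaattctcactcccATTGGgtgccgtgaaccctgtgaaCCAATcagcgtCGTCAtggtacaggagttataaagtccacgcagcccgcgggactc
In the promoters above, the core lies with its first base 112 bases before the start of RT1-S3, 207 before that of RT1-N3, 121 before that of Tap1, 150 before that of B2m and 41 before that of Tap2. In Tapbp there are 2 matches, which begin 26 and 20 bases before the start and share 4 bases. RT1-A2 has a CCAAT box on each strand and a TGACG core on each strand within the last 108 bases.

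The targeted gene was read first. Gpd1l had 265, 314 and 321 counts under si-NC, and 202, 229 and 303 under si-GPD1L. Normalized to the mean library size, its level was 303 ± 36.3 (SD, n = 3) against 244 ± 51.3. The groups overlapped, and the log2 fold change of -0.31 (SE 0.15) did not pass (edgeR quasi-likelihood test, adjusted p = 0.234; two-sided exact permutation test, p = 0.2, where 0.1 is the smallest p that 3 against 3 allows). The lower level of the target in the libraries labelled si-GPD1L was therefore not separable from their spread, and the group names below are those of the labels. Library totals ran from 16892255 to 20149732 counts and the normalization factors from 0.994 to 1.01.

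Class I genes of the RT1-A, RT1-CE, RT1-N, RT1-S and RT1-T24 families were higher in the si-GPD1L libraries, while no RT1-M gene passed the test. Of the 20 class I genes tested, 15 rose past both thresholds used here (adjusted p under 0.05 and log2 fold change over 1), 1 more rose at the adjusted p alone, and none fell. Among all 14852 genes tested, 1.48% rose and 0.135% fell past both thresholds, 4.03% rose and 2.33% fell at the adjusted p whatever the fold change, and 15.1% had every si-GPD1L library above every si-NC library. The median log2 fold change was 1.41 over the 20 class I genes and -0.0049 over all genes tested. Members that pass the filter only through their higher group are tilted toward a difference by the filter. RT1-S2, RT1-CE2, RT1-M6-1 and Nlrc5 reached the filter's level in only 2 of 3 si-NC libraries, although RT1-M6-1 was not called. These counts and medians therefore describe the members tested and support nothing further. Of the 48 members, 26 were tested, and the other 22, with all class II members among them, could not be called. Of the 26 tested, 18 rose past both thresholds, 21 rose at the adjusted p whatever the fold change, and 0 fell. Of the same 26, 0 had a lower value at an unadjusted p under 0.05 in edgeR or past both thresholds in DESeq2.

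**Figure D1:**
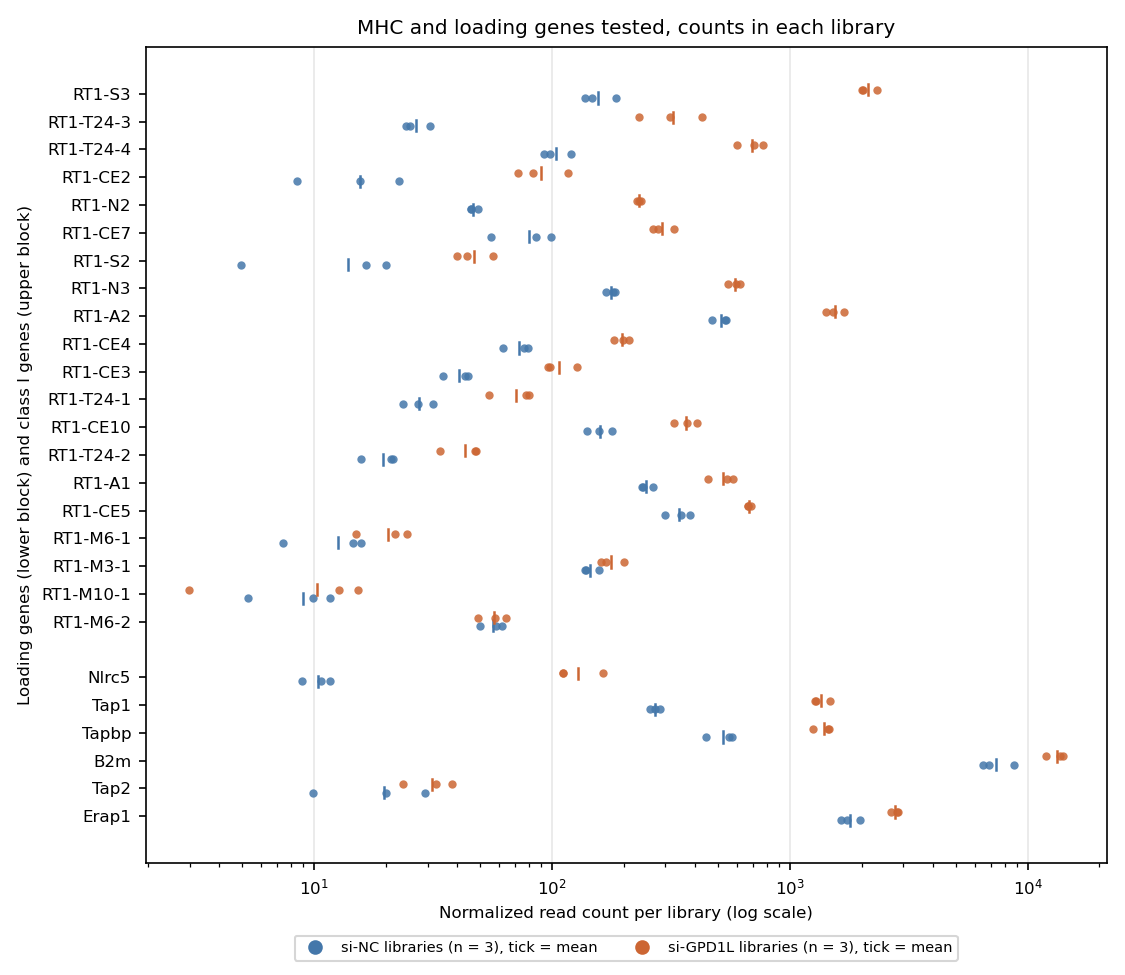
Normalized read count of each tested member in each library (log axis), with blue points for si-NC and orange points for si-GPD1L (n = 3 each) and a tick at each group mean. The 2 groups are apart for 22 of the 26 members, and they overlap for Tap2, RT1-M6-1, RT1-M10-1 and RT1-M6-2.

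The class I members, which are the class I genes with an RT1- symbol, together made up a larger part of the reads. Their summed normalized counts were 2255, 2293 and 2271 under si-NC, and 7614, 8920 and 8023 under si-GPD1L, a ratio of means of 3.60. On the per-length scale of the deposited TPM values the sum went from 167 ± 7.35 to 585 ± 50.9 (SD, n = 3), a ratio of 3.50. The lowest si-GPD1L library lay far above the highest si-NC library on both scales. Since these are bulk RNA samples, a larger share of cells that express class I genes and more class I RNA per cell cannot be told apart.

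**Figure D2:**
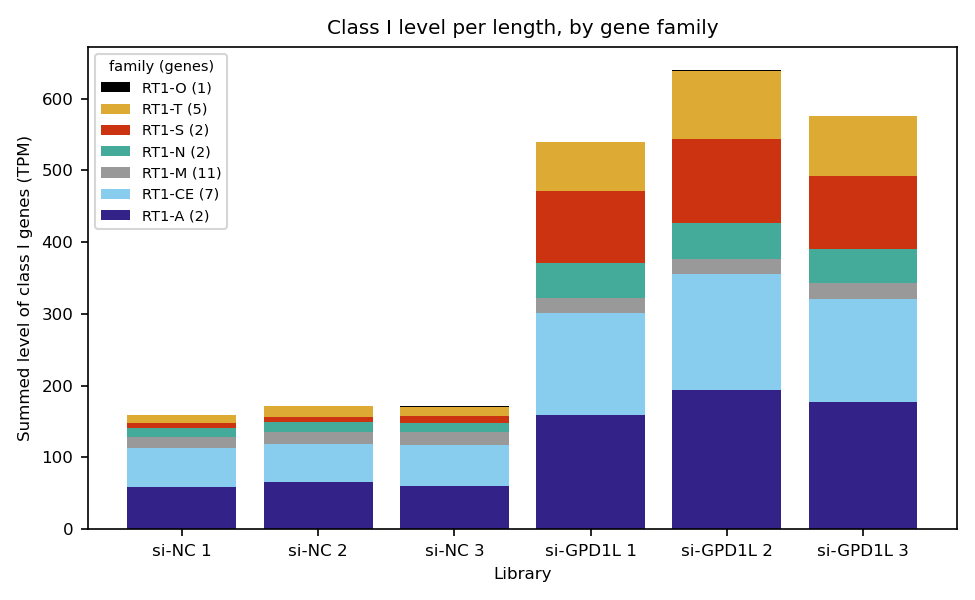
Summed TPM of the class I members in each library, stacked by family, with the number of genes of each family in brackets. The 3 si-NC libraries sum to between 159 and 172 TPM and the 3 si-GPD1L libraries to between 539 and 640 TPM, and the RT1-S and RT1-T parts grow the most in proportion.

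The RT1-S genes, nonclassical class I genes that lie close to the RT1-N and RT1-T24 genes, changed by the largest ratio of the class I families on the TPM scale. RT1-S3 (chr20:3176124-3180825 in rn6, plus strand) had 137, 147 and 185 normalized counts under si-NC, and 2018, 2329 and 2026 under si-GPD1L. The groups did not overlap, and its log2 fold change of 3.76 (SE 0.11, 13.5-fold) was the highest of all members (edgeR quasi-likelihood test, adjusted p = 1.95e-10). The promoter of RT1-S3 shown above holds an interferon-response core, and the part of that core in the change was not tested. The other gene of the family, RT1-S2, was scarce, with 4.9, 20.1 and 16.6 normalized counts under si-NC and 56.7, 40.0 and 43.9 in si-GPD1L. Its groups did not overlap either, and its log2 fold change was 1.75 (SE 0.38, adjusted p = 0.0165). That call was lost when any of the 3 si-GPD1L libraries was left out, with adjusted p-values of 0.0964, 0.0538 and 0.0521.

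RT1-T24 genes, which are also nonclassical, had the second-largest family ratio. RT1-T24-3 went from 30.6, 25.4 and 24.4 normalized counts to 231, 428 and 312, with a log2 fold change of 3.59 (SE 0.24, adjusted p = 6.79e-07). In the deposited transcript table its most abundant transcript gave a log2 fold change of 4.70, a fold of 26.0 in place of 12.1. RT1-T24-4 went from 92.9, 121 and 98.6 to 601, 769 and 709, with a log2 fold change of 2.74 (SE 0.13, adjusted p = 1.5e-08). Every si-GPD1L library was well above every si-NC library for both of these genes.

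The remaining RT1-T24 genes changed less. RT1-T24-1 went from 23.7, 31.7 and 27.3 normalized counts to 54.5, 80.0 and 77.9, with a log2 fold change of 1.36 (SE 0.24, adjusted p = 0.00425). RT1-T24-2 had 15.8, 21.2 and 21.5 under si-NC and 48.0, 47.3 and 33.9 in si-GPD1L, with a log2 fold change of 1.14 (SE 0.27, adjusted p = 0.0292). The groups were apart for both, but RT1-T24-2 lost its call without si-NC library 2 (adjusted p = 0.0735), without si-GPD1L library 1 (0.138) or without si-GPD1L library 2 (0.152). RT1-T18 had 1 count in all libraries together and was not tested.

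RT1-N2 and RT1-N3, again nonclassical, alternate with the RT1-S genes along the chromosome. RT1-N2 had 45.5, 45.5 and 48.8 normalized counts under si-NC and 227, 233 and 236 under si-GPD1L. The groups were far apart and each of them was tight. Its log2 fold change was 2.31 (SE 0.14, adjusted p = 1.56e-07). RT1-N3 was more abundant, with 185, 180 and 169 against 594, 619 and 549, and a log2 fold change of 1.72 (SE 0.097, adjusted p = 8.88e-08). The 8 tested RT1-N, RT1-S and RT1-T24 genes lie within 136 kb on chromosome 20 in the coordinates of the table, and each of the 8 was higher at the adjusted p.

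RT1-A genes encode the classical class I heavy chains, which present peptides to CD8 T cells. RT1-A2 (chr20:5374990-5378536 in rn6, plus strand) had 539, 532 and 472 normalized counts under si-NC and 1425, 1684 and 1519 under si-GPD1L. The groups were far apart, and the log2 fold change was 1.59 (SE 0.087, 3.00-fold, adjusted p = 6.7e-08). RT1-A1 had 239, 267 and 241 against 452, 574 and 543, also without overlap. Its log2 fold change of 1.07 (SE 0.11, adjusted p = 4.7e-05) lay just above the fold threshold, and it was 0.9996 without si-GPD1L library 2 and 0.997 in the transcript table, just under it in both cases.

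The RT1-CE genes are nonclassical and form the largest tested family. RT1-CE2 rose from 22.7, 8.5 and 15.6 normalized counts to 72.0, 116 and 82.8, with a log2 fold change of 2.52 (SE 0.31, adjusted p = 0.000262). RT1-CE7 rose from 98.9, 85.7 and 55.6 to 280, 327 and 265, with a log2 fold change of 1.86 (SE 0.18, adjusted p = 2.38e-05). The groups were apart for both, although the si-NC libraries of RT1-CE2 differed among themselves by more than those of RT1-CE7 in proportion to their mean.
RT1-CE4 rose from 62.3, 79.4 and 76.1 to 198, 210 and 182, with a log2 fold change of 1.44 (SE 0.15, adjusted p = 4.4e-05). RT1-CE3, which spans RT1-CE4 in the table, rose from 44.5, 34.9 and 42.9 to 98.1, 127 and 95.8, with a log2 fold change of 1.39 (SE 0.20, adjusted p = 0.000895). These overlapping genes showed nearly the same fold change.
RT1-CE10, which lies at the other end of the complex from the rest of its family, rose from 140, 179 and 158 to 327, 405 and 369, with a log2 fold change of 1.21 (SE 0.12, adjusted p = 4.81e-05). RT1-CE5 rose from 350, 298 and 380 to 668, 668 and 690, with a log2 fold change of 0.98 (SE 0.098, adjusted p = 4.03e-05). It passed the adjusted p but not the fold threshold, which it crossed when si-NC library 3 was left out (1.06). RT1-CE6 had at most 3 counts in a library and was not tested.

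RT1-M genes were the exception among the class I families. None of the 4 tested was called by edgeR or by DESeq2 past both thresholds or at the adjusted p alone, and 0 had an unadjusted p under 0.05. Whether their fold changes differ from those of the other families was not tested. RT1-M3-1, the relative of the mouse gene whose product presents bacterial N-formylated peptides, had 137, 139 and 158 normalized counts under si-NC and 160, 168 and 202 under si-GPD1L. Its groups were just apart, and its log2 fold change of 0.29 had a 95% confidence interval from -0.0072 to 0.58 (adjusted p = 0.235).
RT1-M6-2 had 58.3, 61.4 and 49.8 against 57.8, 49.1 and 63.9, fully overlapping, with a log2 fold change of 0.0092 and an interval from -0.42 to 0.44 (adjusted p = 0.987). RT1-M6-1 gave 0.68 with an interval from -0.14 to 1.50 (adjusted p = 0.312). RT1-M10-1 gave 0.18 with an interval from -0.99 to 1.36 (adjusted p = 0.88). These intervals leave room for a change of the size seen in RT1-CE5 in RT1-M6-1 and RT1-M10-1, but not in RT1-M3-1 or RT1-M6-2. RT1-M2, RT1-M3-2-ps, RT1-M1-4 and RT1-M1-5 were at 0 in every library, which allows up to 3 counts in each, and RT1-M4, RT1-M5, RT1-M1-2 and the single RT1-O gene had at most 4 counts in a library. These intervals and limits cover counting error and the spread between libraries as far as 3 libraries show it.

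**Figure D3:**
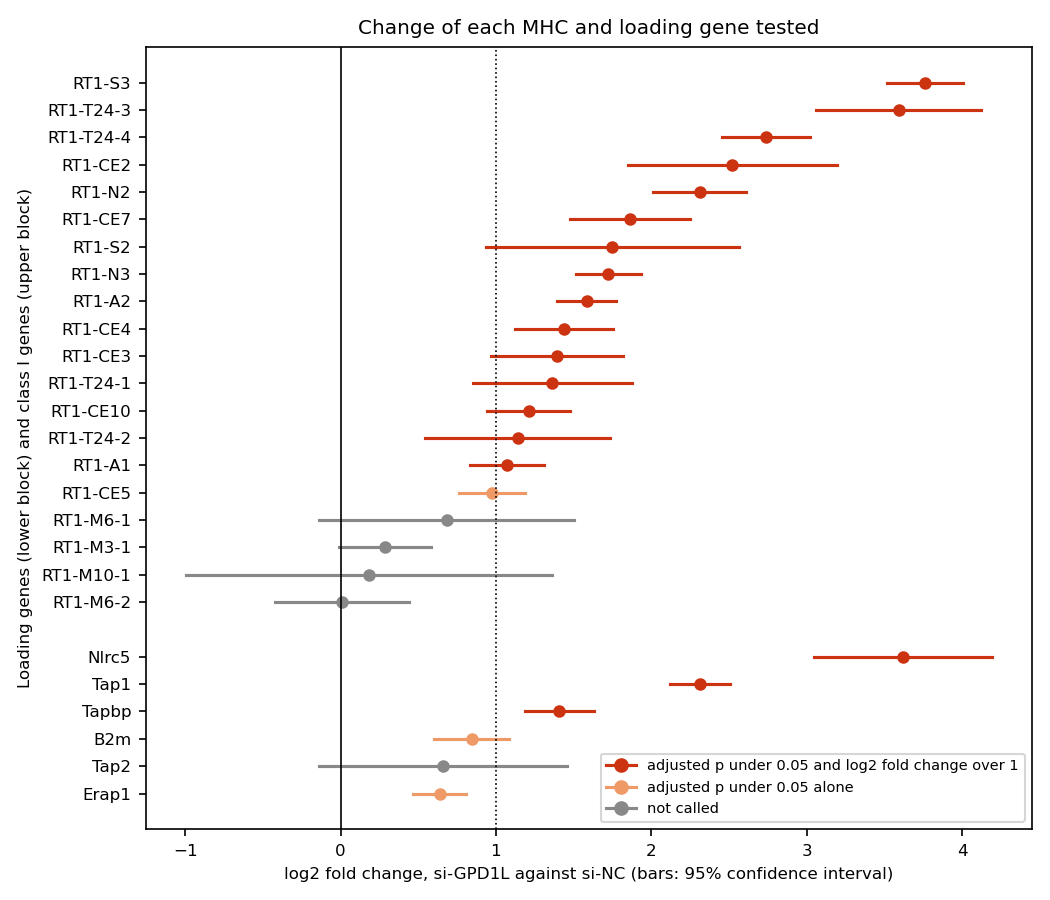
Log2 fold change of each tested member, si-GPD1L against si-NC, with its 95% confidence interval from the quasi-likelihood fit, in red where it passed both thresholds, in orange where it passed the adjusted p alone and in grey where it was not called. The class I genes run from 0.0092 for RT1-M6-2 to 3.76 for RT1-S3, and the dotted line marks a log2 fold change of 1.

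The order of the class I members by level per length changed. RT1-A2 was the most abundant of these members in both groups. It was at 41.6 ± 2.18 TPM (SD, n = 3) under si-NC and 132 ± 12 under si-GPD1L, which was 24.9% and 22.6% of the class I sum. RT1-S3 was at rank 9 in si-NC with 7.30 ± 1.47 TPM, and at rank 2 in si-GPD1L with 105 ± 9.21 TPM, so that its part of the class I sum went from 4.37% to 17.9%. RT1-CE5 (56.9 ± 1.17 TPM) and RT1-T24-4 (56.8 ± 7.31 TPM) followed in si-GPD1L and did not differ beyond their spread. RT1-M3-1 went from rank 4 (11.6 ± 1.38 TPM) to rank 11 (15.0 ± 1.90 TPM). By family, the ratio of TPM sums was 13.9 for RT1-S, 6.24 for RT1-T, 3.86 for RT1-N, 2.87 for RT1-A, 2.71 for RT1-CE and 1.28 for RT1-M.

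The position of the genes along chromosome 20 is shown in the plot of changes along the complex. The tested RT1-M genes form a stretch with values between 0.0092 and 0.68, none of them called. The RT1-N, RT1-S and RT1-T24 genes follow with values between 1.14 and 3.76. The RT1-A genes and the RT1-CE genes other than RT1-CE10 come last with values between 0.98 and 2.52. The class II genes lie between the RT1-T24 and the RT1-CE genes, on either side of Tap1 and Tap2.

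**Figure D4:**
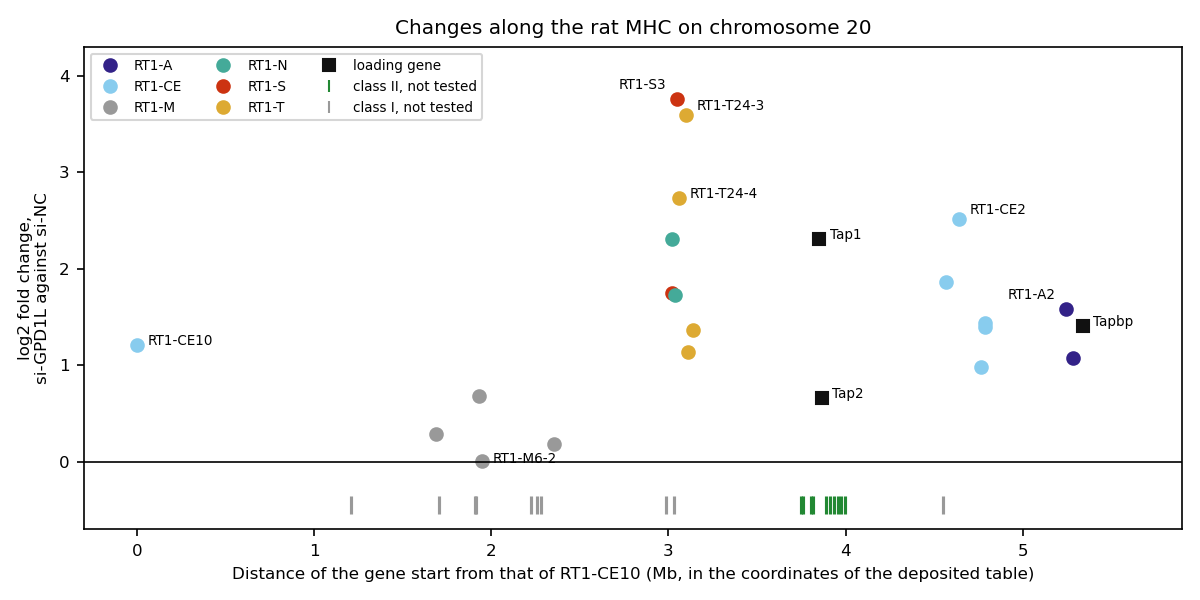
Log2 fold change of the members on chromosome 20 against the distance of their start from that of RT1-CE10, in Mb. Circles are tested class I genes coloured by family, squares are Tap1, Tap2 and Tapbp, and ticks under the zero line are class II (green) and class I (grey) members that were not tested.

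Class II genes were at the limit of detection in both groups. The 10 genes together had 9, 9 and 3 counts under si-NC, and 3, 8 and 9 under si-GPD1L. These sums overlapped, with a ratio of normalized means of 0.914. RT1-Db1, the beta chain of the RT1-D molecule, was the only class II gene with more than 4 counts in any library, with 7, 5 and 1 under si-NC and 2, 6 and 6 under si-GPD1L. RT1-DMa, RT1-DMb, RT1-Ba and RT1-Da had between 1 and 7 counts in all 6 libraries together. RT1-Bb, RT1-DOa, RT1-DOb, RT1-Db2 and RT1-Ha were at 0 throughout. With the filter removed, 5 class II genes could be fitted and none was called, with unadjusted p-values from 0.395 to 0.935 and so 0 under 0.05. The SE of their log2 fold changes ran from 0.82 for RT1-Db1 to 2.21 for RT1-Da. A change as large as the class I median of 1.41 could therefore have been missed in any single class II gene. The ratio of the sums lay below the 3.60 of the class I sum, but it rests on these few counts and was not tested.

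The partners of class II were as scarce. Cd74, whose product occupies the class II groove until peptide arrives, had 2, 6 and 3 counts under si-NC and 4, 3 and 3 under si-GPD1L. Ciita had 5, 6 and 1 against 2, 4 and 4. The groups overlapped for both genes, neither passed the filter, and with the filter removed their adjusted p-values were 0.959 and 0.906. Among genes that supply class II peptides, 6 were tested and 0 passed the adjusted p in edgeR, with 3 at an unadjusted p under 0.05 and 1 at the adjusted p in DESeq2. Ctsl, a lysosomal protease and the most abundant of them, gave a log2 fold change of -0.27 (adjusted p = 0.076).

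Of the 6 loading and regulator genes tested, 3 rose past both thresholds and 2 more at the adjusted p alone. Nlrc5 (chr19:10904381-11006202 in rn6, minus strand), the class I transactivator, had 8.9, 11.6 and 10.7 normalized counts under si-NC and 111, 164 and 112 under si-GPD1L. The groups lay far apart, with a log2 fold change of 3.62 (SE 0.26, 12.3-fold, adjusted p = 1.34e-06), next to RT1-S3 the highest of the members. Ciita, the class II transactivator, was thus at 1 to 6 counts in each library while Nlrc5 went from 9 to 11 counts to between 102 and 180.

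The peptide transporter subunits gave different values. Tap1 (chr20:3979302-3989669 in rn6, plus strand) had 258, 270 and 285 normalized counts under si-NC and 1281, 1469 and 1285 under si-GPD1L, with a log2 fold change of 2.31 (SE 0.089, adjusted p = 1.75e-09). Tap2 had 9.9, 20.1 and 29.3 against 32.7, 23.6 and 37.9. The groups of Tap1 were far apart and those of Tap2 overlapped, with a log2 fold change for Tap2 of 0.66 and a 95% confidence interval from -0.14 to 1.46 (adjusted p = 0.319). On the TPM scale Tap1 was 12.3 times as high as Tap2 under si-NC and 38.8 times in si-GPD1L. Whether the difference between the fold changes of these genes exceeds their error was not tested, but their intervals, 2.12 to 2.50 for Tap1 and -0.14 to 1.46 for Tap2, do not meet.

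Tapbp, which encodes tapasin, rose from 554, 571 and 445 normalized counts to 1451, 1464 and 1248, with a log2 fold change of 1.41 (SE 0.10, adjusted p = 1.36e-06). Erap1, the peptide-trimming protease, rose from 1966, 1642 and 1739 to 2673, 2847 and 2809, with a log2 fold change of 0.64 (SE 0.078, adjusted p = 0.000259). Both genes had groups that did not overlap, and only Tapbp passed the fold threshold.

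B2m, the shared light chain, was the most abundant member in every library, in counts and in TPM. It had 8731, 6877 and 6490 normalized counts under si-NC and 11940, 14099 and 13637 under si-GPD1L. The groups did not overlap, and the log2 fold change was 0.84 (SE 0.11, 1.80-fold, adjusted p = 0.000458). Its level in TPM divided by that of the summed class I members was 3.64, 2.85 and 2.75 under si-NC, and 1.63, 1.64 and 1.76 under si-GPD1L. The ratio was thus lower in each si-GPD1L library than in each si-NC library, and B2m stayed above the sum of these members.

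Other genes of antigen presentation were read from a list of 41, of which 37 were tested. Of these, 6 rose past both thresholds, 10 rose at the adjusted p whatever the fold change and 1 fell by that rule, with a median log2 fold change of 0.061. Among the genes of peptide supply and class I assembly, the catalytic subunits of the immunoproteasome stood highest, with log2 fold changes of 2.36 for Psmb8 (SE 0.12, adjusted p = 2.94e-08), 2.23 for Psmb9 (SE 0.15, adjusted p = 6.89e-07) and 1.14 for Psmb10 (SE 0.14, adjusted p = 0.000351). Psme1 and Psme2, which form the cap that opens the proteasome, and Tapbpl, a relative of tapasin, rose at the adjusted p alone by 0.66, 0.74 and 0.38, and were named after their values were seen. Tapbpl no longer passed without si-NC library 2 (adjusted p = 0.102), si-GPD1L library 2 (0.193) or si-GPD1L library 3 (0.111). Calr, a general chaperone of the endoplasmic reticulum and the most abundant gene of this role, gave 0.061 (adjusted p = 0.681).

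Among 11 regulators of MHC promoters, 10 were tested. Stat2 (2.18, adjusted p = 8.77e-10) and Irf9 (1.81, adjusted p = 5.17e-09), which take part in the response to interferon, rose past both thresholds. Irf1, which binds the interferon-response core, rose by 0.60 (adjusted p = 0.00201). The 7 others did not pass the adjusted p. Among them were Rfx5, Rfxank, Nfya, Nfyb, Nfyc and Creb1 of the complex that sits on the conserved box of MHC promoters. Rfx5 (0.24, unadjusted p = 0.0204) and Rfxank (-0.40, unadjusted p = 0.0239) moved in opposite directions in the quasi-likelihood test, with groups that did not overlap. Rfxap was at 0 counts in every library.

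Of the class I-like genes outside the complex in the list, none passed as higher. Of the 5 tested, 0 were higher at an unadjusted p under 0.05 or in DESeq2, and Mr1, which presents vitamin metabolites, fell by 0.86 on the log2 scale (SE 0.18, adjusted p = 0.0154) and was named after its value was seen. Mr1 no longer passed without si-GPD1L library 1 (adjusted p = 0.0814), without si-GPD1L library 2 (0.0521) or in the transcript table (0.102). Fcgrt, the neonatal Fc receptor chain and the most abundant, gave -0.11 (adjusted p = 0.401). Among the costimulatory and inhibitory signals, Cd274, which encodes PD-L1, rose from 39.2 ± 3.89 to 82.7 ± 15.8 normalized counts (SD, n = 3), with a log2 fold change of 1.08 (SE 0.21, adjusted p = 0.00904) that was 0.91 without si-GPD1L library 3. Icam1, the most abundant of that role, gave -0.088 (adjusted p = 0.491).

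Matches to the promoter motifs were counted in the 39 members that have a promoter in the RefSeq table, over the 250 bases before the start and on both strands. The interferon-response core was found in 7 of 39 members (17.9%) and in 3.41% of all 33469 promoters. The 7 were RT1-S2, RT1-S3, RT1-N3, Tap1, Tap2, Tapbp and B2m. All but Tap2 rose at the adjusted p, as did 12 of the 16 tested members with a promoter but no match. The genes with a match thus ran from 0.66 to 3.76 and included both the highest class I gene and a member that was not called, while RT1-T24-3, at 3.59, had no match in this window.
The CCAAT box was found in 26 of 39 members (66.7%) and in 34.0% of all promoters. It was present before RT1-A1, RT1-A2 and 4 RT1-CE genes, and also before all the class II genes with a promoter in the table, which were at or near 0 counts. TGACG was found in 7 members (17.9%) and in 18.2% of all promoters, the form GGG, any 5 bases, CC of the NF-kB site in 20 members (51.3%) and in 42.3%, and the STAT site TTC, any 3 bases, GAA in 2 members (5.13%) and in 7.67%. A match is a match of letters and says nothing of binding, and the starts in the table are annotated ones.

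**Figure D5:**
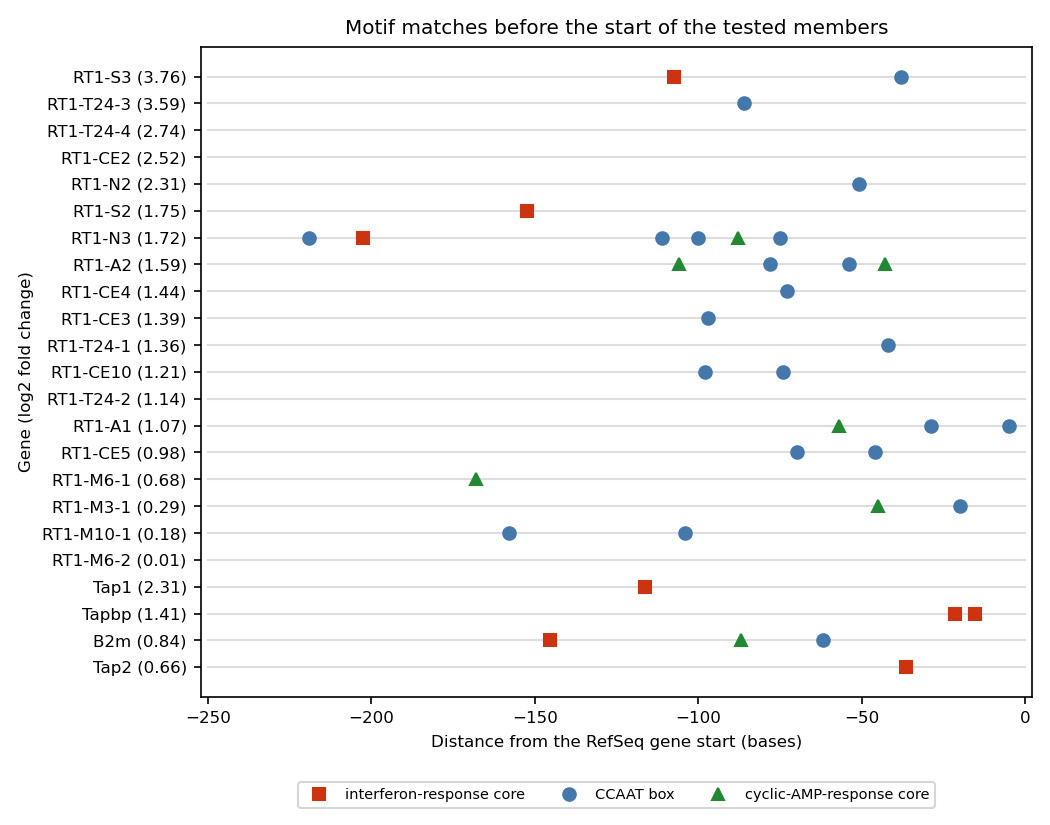
Position of the motif matches in the 250 bases before the RefSeq start of the 23 tested members that have a promoter in the table, with the log2 fold change of each gene in brackets. Squares mark the interferon-response core, circles the CCAAT box and triangles the cyclic-AMP-response core, and the 7 genes with squares range from 0.66 (Tap2) to 3.76 (RT1-S3).

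Reads of these genes may be shared, since class I genes are close copies of each other and several overlap in the table. Of the 26 tested members, 15 overlap another gene in the table's coordinates, and 13 of those are class I genes. The overlaps given here are of whole gene spans, introns included, and the overlap of exons was not measured. RT1-T24-4 shares 7957 bases on the same strand with LOC360231, described as a class I pseudogene, which had 123, 148 and 168 counts under si-NC and 627, 869 and 735 under si-GPD1L. RT1-T24-3 shares 25243 bases of span with the same pseudogene, also on the same strand. The listed lengths are far shorter, at 2831 bases for RT1-T24-3 and 1610 for LOC360231. RT1-S3 lies wholly, over 4702 bases, within an unnamed gene on the opposite strand, which had 80, 58 and 47 counts under si-NC and 126, 191 and 148 under si-GPD1L. RT1-T24-2 lies wholly within RT1-T24-3 on the opposite strand, over 4485 bases. RT1-CE4 lies within RT1-CE3 on the same strand, over 2817 bases, and RT1-O1 within RT1-S2, over 2405 bases. The sources used here do not give the strand setting of the counting or how reads with several best positions were treated, so values of overlapping or near-identical class I genes are uncertain as single genes. For RT1-A1 and RT1-A2, a transcript had more counts than its own gene in all 6 libraries.

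Markers of other cell types were read beside these results. Cardiomyocyte transcripts were present in these fibroblast cultures, with a sum over 7 markers of 29584 to 30944 normalized counts under si-NC and 26266 to 28939 under si-GPD1L, and 0 of the 7 passed the adjusted p (5 at an unadjusted p under 0.05, 0 in DESeq2). The 10 fibroblast markers summed to between 1295782 and 1605803 under si-NC, and between 1501562 and 1593439 under si-GPD1L. Most of these sums came from Col1a1 and Col3a1, with means of 762793 and 548736 under si-NC, so they say little of the other markers. Dcn (-0.66) and Lum (-0.77) fell at the adjusted p, which Dcn no longer passed without si-GPD1L library 1 (adjusted p = 0.0564) or 2 (0.0842). The 15 markers of antigen-presenting and other blood cells summed to between 3100 and 3346 under si-NC, and between 2647 and 3882 under si-GPD1L, and 0 of the 12 tested passed the adjusted p in edgeR or DESeq2 (1 at an unadjusted p under 0.05). Lyz2, a macrophage product, had means of 1561 and 1535, whereas the T cell marker Cd3e was at 0 and Flt3 and Cd79a had at most 6 counts in a library. The 8 endothelial markers, of cells that also carry class I molecules, summed to between 584 and 704 under si-NC, and between 831 and 989 under si-GPD1L, a ratio of 1.47. Of the 7 tested, 3 rose at the adjusted p, namely Pecam1 (0.90), Cdh5 (1.07) and Plvap (1.44). Pecam1 no longer passed without si-NC library 2 (adjusted p = 0.0858), si-GPD1L library 2 (0.152) or si-GPD1L library 3 (0.0780). The part of the endothelial markers in the class I result was not tested.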

How the data were processed

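PolyA-selected RNA of 6 libraries was sequenced as paired reads on an Illumina platform. The submitters' processing notes name bcl2fastq, HISAT2 2.1.0, HTSeq 0.12.4 and the rn6 build. The annotation, the strand setting and the treatment of multiply mapped reads are not given in the sources used here. The authors deposited whole-number read counts per gene and per transcript without normalization, and TPM values per gene. The deposited comparison columns (signals, fold changes and p-values of the authors' own test) and the GO and KEGG tables were not used.

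From the gene counts, edgeR 4.0.16 in R 4.3.3 left 14852 genes after its filterByExpr step, took TMM factors, and set si-GPD1L against si-NC in the quasi-likelihood F test, with Benjamini-Hochberg adjustment over all genes tested. A call needed an adjusted p under 0.05 together with a log2 fold change beyond 1 in either direction. Normalized counts are counts rescaled to the average library total with the TMM factors. The SE of a fold change was derived from its F value. A count of 0 in a library allows up to 3. Totals of 16892255 to 20149732 counts set the precision, and each pair of libraries within a group differed beyond sampling noise. By chi-square per degree of freedom, si-NC library 1 differed from si-NC libraries 2 and 3 by 19.7 and 27.4. The other pairs within a group gave 3.89 to 8.35. TPM values were used to compare levels between genes and to sum levels over class I genes and families, with no test. The step was tested on simulated data.

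Alternatives were DESeq2 1.42.0, its size factors, upper-quartile normalization, edgeR's exact test, other filters, a replicate block, leaving out each library and the transcript counts. All members were accounted for. Every tested member was named with its fold change, library values were given for those called and for the loading genes, and the pathway genes named were those past both thresholds and the most abundant uncalled gene of each role. Members and lists were chosen with earlier results of these data known. Promoters were RefSeq's (GRCr8), matched by gene ID for 39 of 48 members. Figures were drawn with matplotlib 3.10.9. Protein sequences were not analysed here, and some genes of the pathway and marker lists are not reported here.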

Additional observations from a re-analysis of the deposited data

How the results depend on the processing

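Under 14 alternatives, and counting each member under each of them, 350 of 358 fold changes kept their direction and 349 kept their side of both thresholds. Of the other values, 8 fell below a threshold and 1 came to pass both, and the 8 that reversed were those of uncalled members near 0 change. RT1-M6-2 was -0.015 with upper-quartile normalization and -0.099 in the transcript table, and ran from -0.086 to 0.11 as each library was left out. RT1-M10-1 ran from -0.17 to 0.62 as each library was left out. The cause was not tested.

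The number of class I genes higher past both thresholds was 15 with DESeq2, its size factors, upper-quartile normalization, the exact test, no filter and the replicate block, 13 with at least 10 counts in every library (16 members then left to test) and with the transcript table, and 12 to 16 when a library was left out. The number of all members was 15 to 19 over the leave-outs. Of the loading genes, 5 rather than 3 passed when the fold threshold was dropped. Whether the replicate numbers pair the samples is not known. The deviations of same-numbered libraries correlated at -0.012, -0.0059 and 0.043. The libraries numbered 3 correlated best with each other, and the rest did not correlate best with their own number. With 3 libraries in a group, such values cannot show that pairing is absent. The replicate block left the counts of members at 18 and of class I genes at 15. Class II genes could be fitted only with no filter.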

Other observations

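The RT1- symbols leave out 13 further genes of the table whose descriptions name a class I or class II chain or a class I-like product, and these were looked up after the member values were seen. LOC103690108, described as a non-RT1.A class I chain, had 1129, 1098 and 1039 counts under si-NC and 1443, 2029 and 1809 under si-GPD1L, with a log2 fold change of 0.67 (edgeR quasi-likelihood test, SE 0.083, adjusted p = 0.000301). Its level was 69.8 ± 4.84 TPM (SD, n = 3) under si-NC, above the 41.6 of RT1-A2. Under si-GPD1L it was 117 ± 10.5 TPM, below the 132 of RT1-A2. The class I sums, shares, ranks and B2m ratios above leave this gene out. LOC360231, the class I pseudogene that overlaps RT1-T24-4, had a log2 fold change of 2.32 (SE 0.12, adjusted p = 3.18e-08). LOC100364500, described as similar to RT1-CE11, gave 1.01 (SE 0.17, adjusted p = 0.00367), and it fell under a log2 fold change of 1 without si-NC library 1 (0.89), without si-GPD1L library 1 (0.98) and with upper-quartile normalization (0.99), and was 0.999 in the transcript table.

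LOC108353237, with 38, 21 and 22 counts against 45, 70 and 61, gave 1.09 (SE 0.26, adjusted p = 0.0294), and no longer passed when any of 5 of the 6 libraries was left out. Micb, a stress-induced ligand of natural killer cells in other species, had groups that did not overlap and gave 0.80 (SE 0.23), which did not pass the adjusted p (0.0609). It passed with DESeq2 (0.0454), the exact test (0.0115) and no filter (0.00714), and not under the 11 other alternatives, where the adjusted p reached 0.176. LOC108353240, described as a class I alpha chain, was at 0 counts in the si-NC libraries and at 5, 7 and 6 in the si-GPD1L libraries, and did not pass the filter. The 2 class II genes of this group with counts, LOC108348072 and LOC108348139, had at most 4 counts in a library, as scarce as the class II members. Whether reads move between these genes and their RT1 neighbours was not tested.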
